A study of Mus musculus with 24 samples.

Results

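The comparison described here was that of BAF180-deficient with wild type (WT) Naïve CD4 T cells after activation through the T cell receptor, measured on 3 KO and 3 WT arrays of the 24 in the series. The 6 arrays were those whose labels give stimulated Naïve cells, and replicates carry the letters A, B and C in each genotype. All 6 held Naïve CD4 cells of spleen and lymph nodes, isolated by kit to 95% purity and kept for 24 h on plates coated with 1 µg/ml anti-CD3 and 2 µg/ml anti-CD28. The other 18 arrays held resting Naïve cells and resting and stimulated Th2 cells of both genotypes. The KO carried loxP sites around exon 11 of Pbrm1, the gene of BAF180, and was deleted by Cre under the CD4 promoter late in thymocyte development. The labels name Balb/c mice of 4 to 6 weeks, whereas the study's methods describe a mixed strain background, and neither states whether the WT mice carried Cre or floxed alleles. Arrays were made from 3 pairs of mice by the study's account, which does not say that a letter marks a pair.

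SWI/SNF complexes use the energy of ATP to move nucleosomes and so change which DNA is open to transcription factors. The PBAF form holds BAF180, a subunit with several bromodomains that bind acetylated histones, together with ARID2, whereas BAF complexes hold BAF250 in their place. A Naïve T cell that receives both T cell receptor and CD28 signals leaves quiescence, takes up amino acids and glucose, begins to make cytokines and prepares to divide. The question asked of these arrays was which genes depend on BAF180 in that state.

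Intensities of Illumina mouse beadchips were background-corrected, quantile-normalized and put on the log2 scale, where a difference of 1 is a factor of 2. Of 25697 probes, 14246 were kept because their detection p was at most 0.02 on at least 1 of the 24 arrays, and they stood for 10419 genes. A gene was called when 1 of its probes met 4 criteria with the thresholds of the study's methods, applied here to limma's values. The study itself used Z-scores and another estimate of the false discovery rate. The first criterion was a difference beyond 1.5 SD of all differences (0.28 on the log2 scale). The second was a Benjamini-Hochberg false discovery rate (FDR, given as the adjusted p) below 0.3. The others were a p below 0.05 and a positive mean signal after background correction. That last criterion removed no probe, because the background correction used here gives only positive values, so probes near background could be called. An FDR of 0.3 is lenient, and 3 of the genes called in this way had an adjusted p below 0.05. The p came from limma, fitted to all 24 arrays without a replicate block, and a fit with the letter as a block stands beside it where the result changed. That block gave each letter the same effect in every cell state.

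The arrays detected 8935 to 10689 probes each, and arrays of one genotype correlated at 0.960 to 0.986 over the kept probes. KO replicate C stood apart from the other 5 arrays in 2 sex-linked genes. Xist, the RNA made from the inactive X chromosome of female cells, measured 8.80 on the log2 scale there and 4.22 to 4.36 on the other 5 arrays, and the Y-linked Ddx3y measured 5.23 there and 7.95 to 8.25 on the others. The same held for KO replicate C in all 4 cell states, where Xist lay between 8.60 and 8.80 against 4.20 to 4.97 on the 20 other arrays. The labels give no sex. The part of this difference in the results was not tested beyond leaving the array out, and values without KO replicate C are given below for the counts and for genes it moved. All 12 kept markers of CD4 T cells, Cd3e and Cd4 among them, were detected on every array.

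Of the 10419 genes 15 were called, 0.144% of those tested, and 8 of them rose and 7 fell in the KO. The genes that fell were Pbrm1, the glucosyltransferase gene Poglut2, the amino acid transporter gene Slc7a3, the cysteine synthesis gene Cth, the folate enzyme gene Aldh1l2, the lysosomal transporter gene Abcb9 and the oxysterol-binding protein gene Osbpl2. Those that rose were Scg2, Il18r1, Aldh5a1, Hjurp, Lum, Tm4sf5 and, by a dim second probe only, Cort and Rps27a. With the letter as a block all 15 genes were called again and 7 more joined them, every one lower in the KO, which made 22 genes or 0.211% of those tested. With a separate block in each cell state 30 genes were called, 14 higher and 16 lower, of which 12 were among the 15, and Aldh5a1, Osbpl2 and Rps27a were not. Without KO replicate C 12 genes were called, and 6 of them were among the 15: Pbrm1, Poglut2, Cth, Abcb9, Scg2 and Aldh5a1. Without KO replicate A, KO replicate B, WT replicate A or WT replicate B, 3, 5, 9 and 4 genes were called. A fit of the 6 arrays alone, with fewer residual degrees of freedom, called none, with a lowest adjusted p of 0.863 and 325 probes at an unadjusted p below 0.05. An unadjusted p below 0.05 was reached by 321 probes with all 6 arrays and by 652 without KO replicate C. By gene, 1.2% were higher and 1.11% lower at that p with all 6 arrays. If no gene differed, a share of 0.05 would be expected to reach it. The balance of 8 higher to 7 lower was 2 to 3 with Z-score normalization, 1 to 4 without background correction, 5 to 7 with a larger offset and 1 to 0 with median centring.

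**Figure D1:**
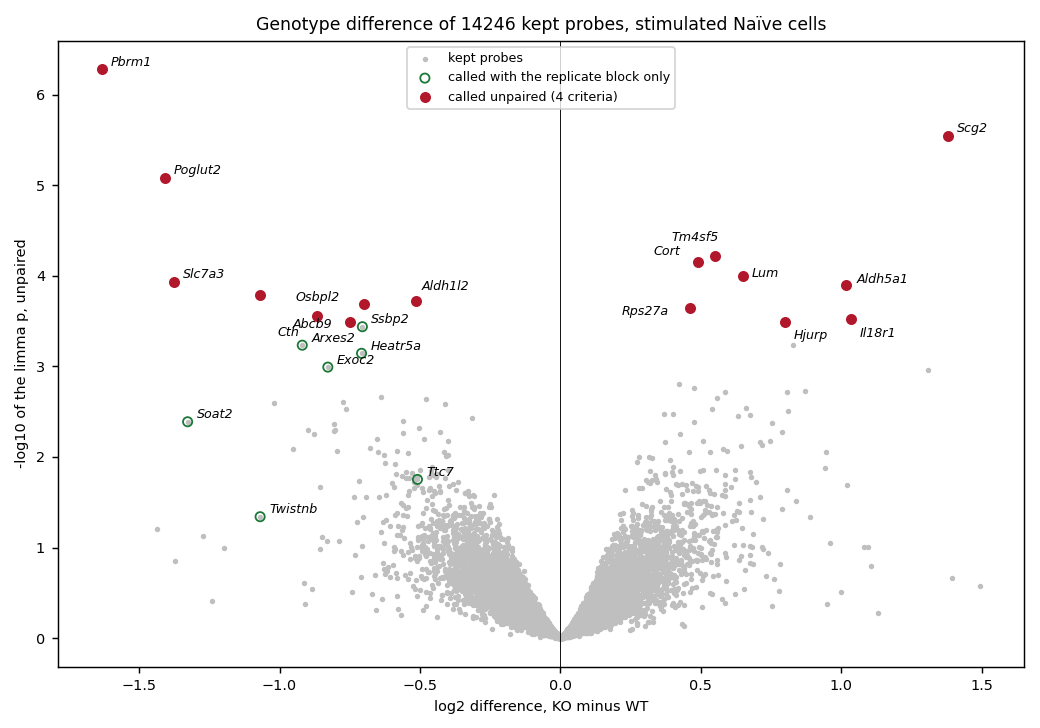
Each point is 1 of 14246 kept probes, with the log2 difference KO minus WT on the x axis and the -log10 of the unpaired limma p on the y axis. Filled red points are the probes called by the 4 criteria and open green points those called only with the replicate block, all of which lie to the left of 0.

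Pbrm1 itself was the gene with the lowest p. Its brightest probe measured 6.36, 7.06 and 7.41 in KO replicates A, B and C and 8.29, 8.76 and 8.67 in the WT replicates. All KO arrays lay below all WT arrays, KO replicate C was the highest of the KO, and the difference was -1.63 ± 0.23 (SE, n = 3 a group), a 3.10-fold lower level (limma adjusted p = 0.00746). The KO signal that remained was detected on all 3 arrays. The array carries 3 Pbrm1 probes of 50 bases, at positions 2024, 2025 and 2060 of one transcript record, so they sample a single stretch of RNA and not 3 independent sites. The ends of the outer probes are shown because they share 14 bases, marked in capitals, so their values are not independent:
last 30 bases of the probe at 2024: gacacaagctgtgcctGCACATAGCTGTGC
first 30 bases of the probe at 2060: GCACATAGCTGTGCagggtagactgcctac
Of the dimmer probes, one differed by -0.68 ± 0.23 with overlap between genotypes, and the other was not above background on any KO array, so that WT was at least 1.27-fold higher there. Neither was called. The sources used here do not place these probes relative to exon 11, so the values show less Pbrm1 RNA and do not measure the deleted exon.

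Of the other subunits, Arid2 of PBAF differed by -0.14 ± 0.38, and none of the 10 kept shared subunits had a p below 0.05 in the unpaired fit. Nor did any of 7 kept genes listed here as BAF subunits, which were Dpf1, Smarca2, Ss18, Bcl7a, Bcl7b, Brd9 and Bicra. The BAF250 genes Arid1a and Arid1b were not among them, so no value is given here for BAF250. Among the shared subunits the closest was Smarcc2, a core subunit, at 0.41 ± 0.20 with no overlap between genotypes. It had a p below 0.05 with the block. The ATPase gene Smarca4, which encodes BRG1, differed by 0.07. Among the 50 kept genes nearest to Pbrm1 on chromosome 14, 25 on each side, 32 were above 0 and 18 below, and their median was 0.03. Of these 50, 2 had a p below 0.05, Oxnad1 (-0.24) and Ncoa4 (-0.45). Both were lower, where 1.11% of all kept genes were lower at that p.

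Poglut2 encodes an enzyme of the endoplasmic reticulum that adds glucose to serines of secreted and membrane proteins. Its brightest probe measured 4.95, 5.22 and 5.72 in KO replicates A, B and C and 6.38, 6.82 and 6.91 in WT. The genotypes were apart in every letter and the difference was -1.41 ± 0.24, a 2.66-fold lower level (limma adjusted p = 0.0391, and 0.00338 with the block). A second probe fell by 1.07 ± 0.23 on the log2 scale, although its KO and WT arrays overlapped, since WT replicate A at 4.87 lay below KO replicate C at 4.96. Of the 7 kept O-glycosyltransferases of the endoplasmic reticulum it was the only one with a p below 0.05, and its relative Poglut1 differed by 0.09.

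Slc7a3, a transporter of arginine and lysine, measured 7.72, 7.33 and 7.50 in KO and 8.99, 9.02 and 8.67 in WT. No KO array came near the lowest WT array, and KO replicate C lay between the other KO arrays for this X-linked gene. The difference was -1.38 ± 0.29, a 2.59-fold lower level (limma adjusted p = 0.224), and -1.37 without KO replicate C, where the gene was not called (limma adjusted p = 0.386). Cth, whose enzyme makes cysteine from cystathionine, measured 4.48, 4.95 and 5.05 in KO and 5.28, 5.93 and 5.86 in WT and fell by 0.87 ± 0.20 on the log2 scale (limma adjusted p = 0.291). Aldh1l2, a mitochondrial enzyme of folate metabolism, was called by its dimmer probe, which was not above background on any KO array and was on 2 of the WT arrays. The KO level there is only a bound, and the WT mean was at least 1.17-fold higher. The brighter Aldh1l2 probe measured 4.21, 4.56 and 5.10 in KO and 4.81, 5.47 and 5.99 in WT, a difference of -0.81 ± 0.25 that was lower in each letter, overlapped between genotypes and was called only with a block within each cell state (limma adjusted p = 0.107).

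None of the 12 kept amino acid transporter genes was above 0, against 51.5% of all kept genes, and their median was -0.13 against 0.01 over all genes. Slc7a8, Slc7a1, Slc38a1 and Slc7a11 averaged 4.21 to 4.56 in KO and 4.27 to 4.67 in WT, close to background. The sign of their differences therefore carries little weight. Only Slc7a3 passed the test, and the next 3 by size were Slc6a9 at -0.51 ± 0.53, Slc1a5 at -0.37 ± 0.31 and Slc3a2 at -0.25 ± 0.17. Without KO replicate C the median was -0.17 and 1 of the 12 was above 0. ATF4 is the transcription factor that raises amino acid uptake, synthesis and tRNA charging when amino acids run short. Of 28 kept genes from a list of its targets and tRNA synthetases, 22 were below 0, and 3 had a p below 0.05, all lower, where 1.11% of all kept genes did. Their median was -0.18, and it was -0.04 with median centring, -0.08 without KO replicate A, -0.06 without WT replicate C and -0.26 without KO replicate C. These were Cth, Atf5 (-0.86 ± 0.34) and the glutamyl-prolyl-tRNA synthetase gene Eprs (-0.64 ± 0.18). Phgdh, the first enzyme of serine synthesis, was at -0.73 ± 0.45, and Trib3 and Ddit3, both induced in amino acid stress, were at -0.67 ± 0.67 and -0.66 ± 0.50. Asns, a classical ATF4 target, was at -0.20, and 1 of the 28, Cth, was called. In resting Naïve cells 17 of the 28 were above 0 with a median of 0.02, and in stimulated Th2 cells 8 were above 0 with a median of -0.09.

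ATF4 binds DNA at a composite element read here as TGATGNAA on either strand. RefSeq promoters of 250 bases before to 50 after the start (GRCm38.p6) held a match for 10 of the 23 ATF4-list genes that have an entry, against 4.51% of all promoters in the table and 3.16% of the 8259 kept genes with an entry. None of the 4 genes called lower that have an entry held it, and Slc7a3, Cth and Aldh1l2 had no entry. Of 90 genes lower at p below 0.05 with an entry, 4 held it, or 4.44%, so the lower genes as a whole were close to the background. Of 102 genes higher at that p with an entry, 2 held it, or 1.96%. The stretches below were picked because they hold a match. The mitochondrial gene Chchd10 (-0.88 ± 0.28, not called and not on the ATF4 list) has 2 matches 85 and 72 bases before its start. The exocyst gene Exoc2, called with the block, and Asns are shown for comparison. Each stretch is on the gene's own strand with the matches in capitals, that of Exoc2 reading on the opposite strand:
Chchd10, chr10:75933025-75933085, plus strand: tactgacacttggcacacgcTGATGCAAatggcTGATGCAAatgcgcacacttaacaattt
Exoc2, chr13:30950386-30950433, minus strand: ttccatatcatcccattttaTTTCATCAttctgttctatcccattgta
Asns, chr6:7693205-7693252, minus strand: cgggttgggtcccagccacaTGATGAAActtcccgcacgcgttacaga
Chchd10 measured 9.18, 9.80 and 8.80 in KO and 10.26, 10.26 and 9.89 in WT, so it was lower in every letter without overlap. A match of letters is a description and shows no binding.

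**Figure D2:**
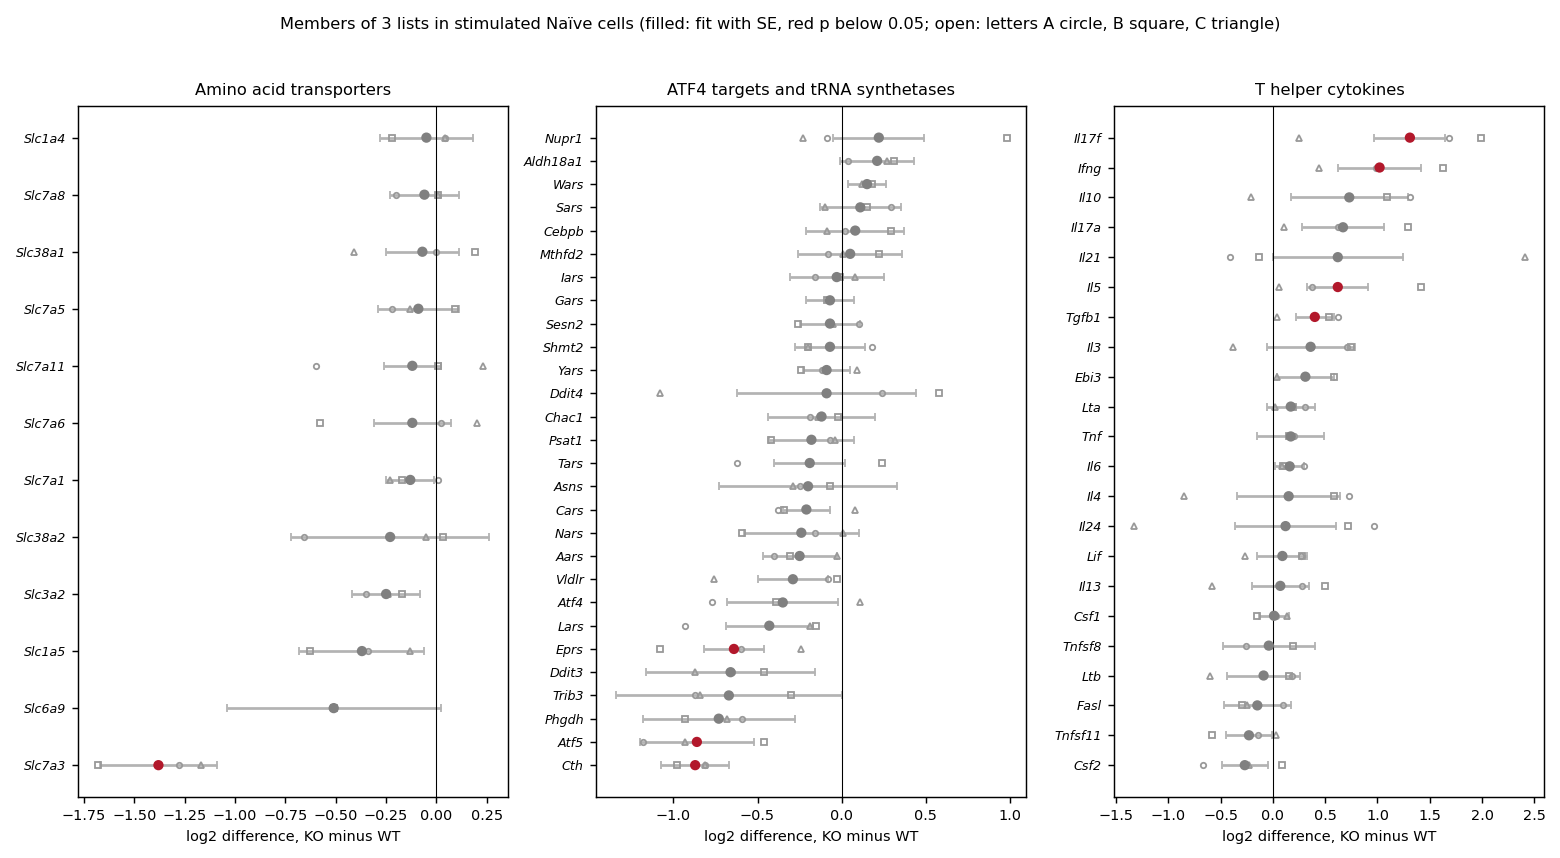
Log2 differences KO minus WT of each kept member of 3 lists, with the fitted value and its SE (filled, red where p was below 0.05) and the 3 letters apart (open). The fitted values of all 12 transporters and 22 of 28 ATF4-list genes lie below 0, and among cytokines the triangles of letter C lie closest to 0 for Il17f and Ifng.

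Abcb9, which carries peptides into lysosomes, measured 5.19, 5.0 and 5.41 in KO and 5.83, 5.85 and 6.17 in WT, a difference of -0.75 ± 0.17, and its second probe was at -0.74 ± 0.31. Osbpl2, a lipid transfer protein, measured 6.50, 6.32 and 6.46 in KO and 7.24, 7.16 and 6.96 in WT, a difference of -0.70 ± 0.15. For both genes all KO arrays lay below all WT arrays. Osbpl3, a relative of Osbpl2, differed the other way, by 0.70 ± 0.27, and was not called. It measured 7.32, 6.45 and 5.99 in KO and 6.00, 5.69 and 5.99 in WT, so KO replicate C lay among the WT arrays, and the difference was 0.99 without it. Asah1, the lysosomal acid ceramidase, was not called but had no overlap between genotypes, at 6.34, 6.42 and 7.11 in KO and 7.74, 7.40 and 7.80 in WT (-1.02 ± 0.30). The 7 genes called only with the block were Soat2, a cholesterol acyltransferase (-1.33), Twistnb, a subunit of RNA polymerase I (-1.07 by the called probe), Arxes2 (-0.92, an X-linked gene with the near-identical copy Arxes1, so uncertain), Exoc2 (-0.83), Heatr5a (-0.71), Ssbp2 (-0.71) and Ttc7 (-0.51). For Soat2, KO arrays at 6.26, 5.18 and 4.99 overlapped WT arrays at 7.52, 6.83 and 6.07, yet each KO array lay 1.07 to 1.65 below the WT array of its letter. The block removed a letter effect common to every cell state, which is not the same as pairing within these cells.

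Among the genes that rose, Scg2 had the largest difference. It encodes secretogranin II, a granin packed into secretory granules, known best from neuroendocrine cells. It measured 6.92, 5.76 and 5.86 in KO and 4.98, 4.39 and 5.03 in WT, and WT replicate values were near background, with 2 of 3 detected. The difference was 1.38 ± 0.22, a 2.60-fold higher level (limma adjusted p = 0.0203), and without KO replicate C it was 1.53. Il18r1, a chain of the receptor through which IL-18 raises interferon-γ production, measured 5.68, 6.21 and 5.66 in KO and 5.23, 4.69 and 4.54 in WT, a 2.05-fold rise (1.03 ± 0.24, limma adjusted p = 0.291). Aldh5a1, the mitochondrial enzyme that completes the breakdown of GABA, measured 6.66, 6.07 and 5.93 in KO and 5.21, 5.03 and 5.37 in WT, a 2.02-fold rise (1.02 ± 0.22, limma adjusted p = 0.224). No other gene of 7 kept aldehyde and mitochondrial dehydrogenases had a p below 0.05. Hjurp, the chaperone that places the centromeric histone CENP-A, measured 8.42, 8.60 and 8.83 in KO and 7.57, 7.64 and 8.25 in WT, a 1.74-fold rise (0.80 ± 0.18, limma adjusted p = 0.291).

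Another 4 genes rose at levels close to background, where every WT array was undetected and the fold is a lower bound. Lum, a proteoglycan of connective tissue, measured 5.20, 5.0 and 5.06 in KO and 4.29 to 4.52 in WT, at least 1.35-fold higher. Tm4sf5, a membrane protein, measured 4.88 to 5.13 in KO and 4.26 to 4.58 in WT, at least 1.26-fold higher. The dim probe of the ribosomal and ubiquitin gene Rps27a was at least 1.20-fold higher and that of the neuropeptide gene Cort at least 1.06-fold higher. The brightest probes of both did not follow, at 0.07 for Rps27a and -0.05 for Cort, and Rps27a shares sequence with related copies, so both calls are uncertain. Without KO replicate C none of the 4 was called.

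**Figure D3:**
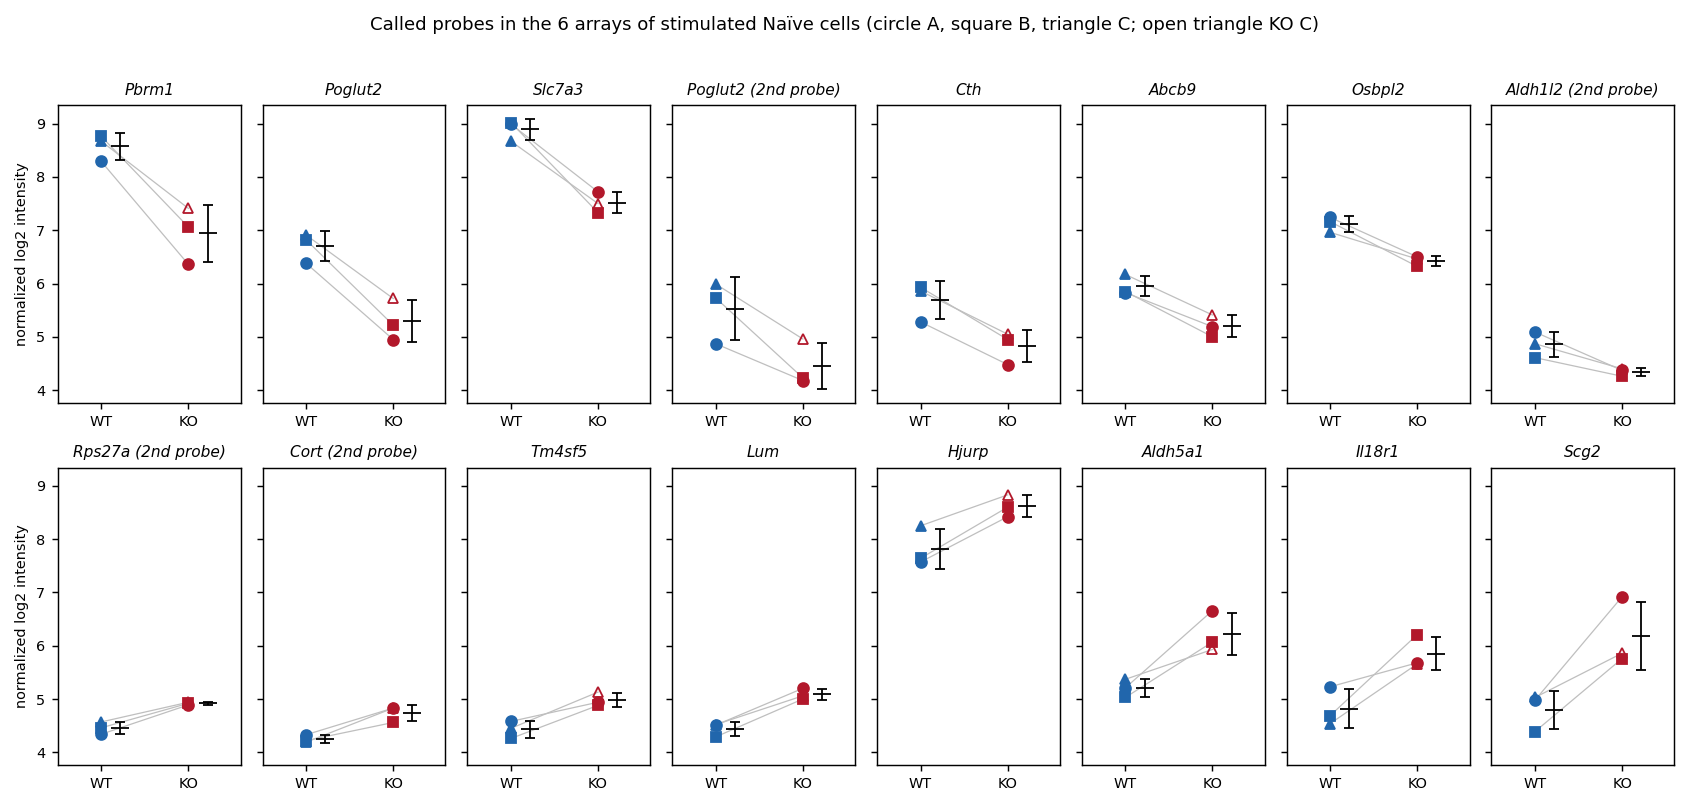
Normalized log2 intensity (y axis) of the 16 called probes of 15 genes in the 3 WT and 3 KO arrays, with lines joining arrays of one letter and black marks for mean ± SD. The KO array lies on the same side of the WT array of its letter for all 3 letters in every panel, and WT and KO overlap only for the second Poglut2 probe.

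None of the cytokine genes was called. Of 22 kept T helper cytokine genes, 17 were above 0, against 51.5% of all kept genes, and 4 had a p below 0.05, all higher, where 1.2% of all kept genes did. The list's median was 0.17, and it was -0.005 without KO replicate A, 0.38 without KO replicate C and 0.31 without WT replicate A. Il17f, a cytokine of Th17 cells, measured 8.83, 8.27 and 7.87 in KO and 7.16, 6.27 and 7.61 in WT. The genotypes did not overlap, with a narrow gap between KO replicate C and WT replicate C, and the difference was 1.31 ± 0.34 (limma adjusted p = 0.704). Ifng, the main Th1 cytokine, measured 11.11, 10.59 and 10.00 in KO and 10.12, 8.96 and 9.57 in WT, a difference of 1.02 ± 0.40 with overlap, and 1.30 without KO replicate C. Il5 was at 0.62 ± 0.29 and Tgfb1 at 0.40 ± 0.18. Il10 measured 8.84 and 8.15 in KO replicates A and B, above all WT arrays (6.84 to 7.53), and 6.63 in KO replicate C, below all of them. Its difference was 0.73 ± 0.56, within the spread, and 1.35 without KO replicate C.

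Effector genes also varied with KO replicate C. Of 17 kept memory and effector genes, 13 were above 0, against 51.5% of all kept genes. A p below 0.05 was found for 4, all higher, where 1.2% of all kept genes had one. Beside Il18r1 these were the galectin genes Lgals1 (0.94 ± 0.33) and Lgals3 (0.89 ± 0.42) and the calcium-binding S100a6 (0.62 ± 0.30). Lgals1 measured 8.59, 8.71 and 7.79 in KO and 7.28, 7.12 and 7.86 in WT, so KO replicate C lay within the WT range. The median of this list was 0.20 in the fit, but 0.20, 0.74 and -0.27 for letters A, B and C, and 0.38 without KO replicate C, 0.08 without KO replicate A and 0.31 without WT replicate A. In resting Naïve cells 15 of the 17 were above 0 with a median of 0.45, and in stimulated Th2 cells 7 were with a median of -0.07. Icos, a costimulatory receptor induced on activation, was at 0.79 ± 0.35, with KO replicate C at 7.97 among the WT arrays and a difference of 1.17 without it. It was the only 1 of 27 kept activation genes with a p below 0.05, 12 of the 27 were above 0, and their median was -0.02. Cd44, the adhesion receptor that marks memory cells, differed by -0.09 ± 0.25.

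Of 21 kept quiescence and homing genes of the Naïve state, 5 were above 0. The median was -0.14, but -0.015 without KO replicate A, -0.08 without KO replicate C or WT replicate B, and -0.03 with median centring, and only Dapl1 had a p below 0.05 (-0.52 ± 0.20). Ccr7, which guides T cells into lymph nodes, was at -0.49 ± 0.39 and the transcription factor gene Klf3 at -0.46 ± 0.25. Of 15 kept regulatory T cell genes, 14 were above 0, with a median of 0.19 (0.11 without KO replicate A, 0.29 without KO replicate B and 0.37 without KO replicate C), and none had a p below 0.05. Their lineage factor Foxp3 was at 0.38 ± 0.27, and the exception was Tnfrsf4 at -0.91 ± 0.77. The medians of cytokine and regulatory T cell genes were nearest to 0 in letter C, at 0.02 and 0.04.

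Of 24 kept mitosis genes, 22 were above 0, with a median of 0.23 that was similar in letters A, B and C (0.25, 0.23 and 0.18). One had a p below 0.05, the kinesin gene Kif23 (0.50 ± 0.22). Without KO replicate C 14 were above 0 and the median was 0.11, whereas it was 0.15 without WT replicate B and 0.41 without WT replicate C. DNA replication genes were above 0 in 30 of 44 with none below a p of 0.05, where 51.5% of all kept genes were above 0. Without KO replicate C it was 24 of 44, with a median of 0.01. Cyclins, CDKs and E2F factors were above 0 in 12 of 23, and in 9 of 23 without KO replicate C. By real-time PCR in stimulated Naïve cells, the study reported higher levels of the CDK inhibitors Cdkn1a, Cdkn2a and Cdkn2b in the KO. Only the Arf transcript of Cdkn2a had a p below 0.05 there. On these arrays none of the 7 kept CDK inhibitors had a p below 0.05: Cdkn1a was at 0.33 ± 0.47, Cdkn2a, undetected on the 3 WT arrays and detected on 2 of 3 KO arrays, at 0.33 ± 0.22, and Cdkn2b at 0.02 ± 0.17. Gata3 (-0.01), Dicer1 (-0.00), Gadd45a (-0.04), Smad1 (-0.21) and Dnmt3b (0.47 ± 0.25), which the study's text names for Naïve cells, also did not pass. Of the 6 genes it names as higher, 5 were above 0 and 2 had a p below 0.05, Il17f and Ifng, to which the block added Dnmt3b. The 3 it names as lower were all below 0, with a median of only -0.04. Without KO replicate C 2 of those 3 were above 0, with a median of 0.20, and with median centring the median was 0.02. These genes were chosen by the study on these samples, so the counts are not independent evidence. In resting Naïve cells the 6 were all above 0, with a median of 0.46, and none of the 3 was, with a median of -0.38. Chemokines and their receptors were above 0 in 15 of 18, with no p below 0.05. Their median was 0.15, and it was 0.02 without KO replicate A, 0.08 without WT replicate C, 0.09 without WT replicate B, 0.26 without WT replicate A and 0.31 without KO replicate C. Interferon-stimulated genes, chaperones, ribosome biogenesis, NF-kappaB, lineage factor, cytotoxic, p53 targets, mitochondrial respiratory chain genes and cholesterol synthesis genes had no member with a p below 0.05 and medians between -0.04 and 0.07. Some of these medians moved with the setting. Without KO replicate C ribosome biogenesis went from 14 to 7 of 27 genes above 0, with a median of -0.14. Chaperones went from 11 to 6 of 25 (median -0.11) and p53 targets from 13 to 15 of 23 (median 0.17). With median centring the median was 0.25 for the respiratory chain and 0.16 for ribosome biogenesis. With the block, Twistnb of ribosome biogenesis and Bax (0.42) of the p53 targets had a p below 0.05, and Twistnb was called. In the remaining lists single members had a p below 0.05: Mcl1 (-0.59) and Bad (0.46) of the BCL2 family, Eno3 (-0.62) of glycolysis, and Tet2 (0.49) and Phc2 (-0.49) of the Polycomb and DNA methylation genes.

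**Figure D4:**
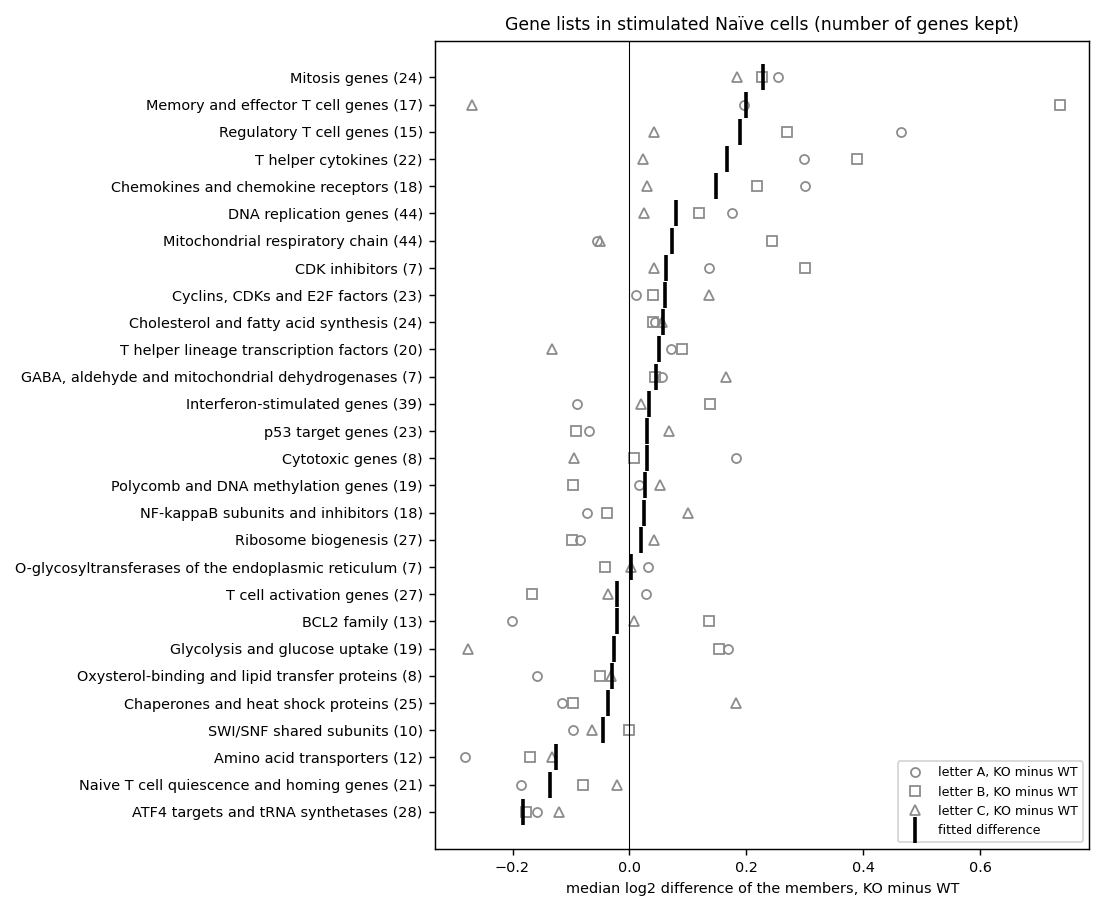
Median log2 difference KO minus WT (x axis) of the kept members of each gene list (y axis, with the number kept), as fitted (bars) and in letters A, B and C apart (open symbols). Mitosis genes lie at 0.18 to 0.25 in all 3 letters, ATF4 targets and amino acid transporters lie below 0 in all 3, and memory and effector genes run from -0.27 to 0.74.

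Markers of other cells were measured in the same way. The summed linear level of the 11 kept B cell markers was 1110 to 2370 in KO and 1100 to 2240 in WT, with Cd79b detected on all 6 arrays and Ms4a1 on none. That of the 12 kept myeloid markers was 263 to 293 in KO and 288 to 341 in WT, with 6 of them, Lyz2, Cd14 and Adgre1 included, undetected on all 6 arrays. An undetected marker still adds a background value to its sum. The 5 kept NK cell markers summed to 239 to 703 in KO and 223 to 308 in WT, with Klrb1c, Klre1 and Klrk1 undetected. Nkg7 among them, also a memory and effector list gene, had a log2 mean of 8.13 in KO and 7.47 in WT. The 7 kept erythroid and platelet markers summed to 170.0 to 259 in KO and 139 to 407 in WT, with 6 of them undetected on all 6 arrays. Cd8b1, a CD8 T cell gene, measured 6.57, 7.17 and 7.28 in KO and 7.74, 7.49 and 8.16 in WT, lower without overlap (-0.79 ± 0.43, not called with or without the block). The 6 kept stromal markers summed to 1190 to 2620 in KO and 718 to 1330 in WT, and 2 had a p below 0.05, Lum and Thy1 (0.81). Thy1, also a T cell gene, was the only one of them detected on all 6 arrays, and Col5a1, Sparc and Pdpn were detected on none. The sum is therefore no measure of stromal cells. The part of other cell types in the results was not tested, and in bulk RNA fewer cells of a type cannot be told apart from less RNA per cell.

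Over all genes, the KO and WT arrays did not overlap in 3.42% of kept genes with KO higher and 3.18% with KO lower. With 3 arrays a group, random order alone would give a share of 0.1 for both directions together. A lack of overlap came with a p below 0.05 and detection on all arrays of the higher group in 119 genes, 63 higher and 56 lower. Among the largest of these that were not called were, higher, Il17f, the synaptic gene Rims3 (0.83 ± 0.20) and the dicarboxylate transporter gene Slc13a3 (0.75 ± 0.23), and, lower, Asah1, Chchd10 and Atf5. With the block, 1.53% of genes were higher and 1.51% lower at p below 0.05, so neither direction prevailed over all genes.

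The genotype difference of each called gene was set beside that of the other cell states. Pbrm1 was below WT in all of them, at -1.01 in resting Naïve, -1.42 in stimulated Th2 and -1.86 in resting Th2 cells. Poglut2 (-0.43, -0.88 and -0.44 in the same order), Abcb9 (-0.77, -0.55 and -0.79), Aldh5a1 (1.38, 0.61 and 0.80), Hjurp (1.00, 0.45 and 0.26) and Osbpl2 (-0.50, -0.33 and -0.31) also kept their sign in every state. Slc7a3 was low in both stimulated states, with -1.38 in Naïve and -1.56 in Th2 cells, and near 0 in both resting states, at 0.09 and -0.08. Scg2 was near 0 or small in the others, at 0.08, 0.20 and -0.03, and Cth at 0.01, -0.27 and -0.09. The levels of these genes in the other states are not given here. A difference near 0 also arises where a gene is undetected in both genotypes. Tests of the difference between states did not separate them after adjustment. For stimulated against resting Naïve cells the unadjusted p was 0.000369 for Scg2, 0.00179 for Slc7a3, 0.00498 for Cth and 0.00858 for Poglut2, and the limma adjusted p was 1 for each. One probe in 14246 (0.00702%) had an adjusted p below 0.05 in that test, for 4930486L24Rik, and 0% did for stimulated Naïve against stimulated Th2 cells, where the lowest adjusted p was 0.269 and 218 probes had an unadjusted p below 0.05. Whether the arrays of the 4 states came from the same mice is not stated in the sources used here.

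**Figure D5:**
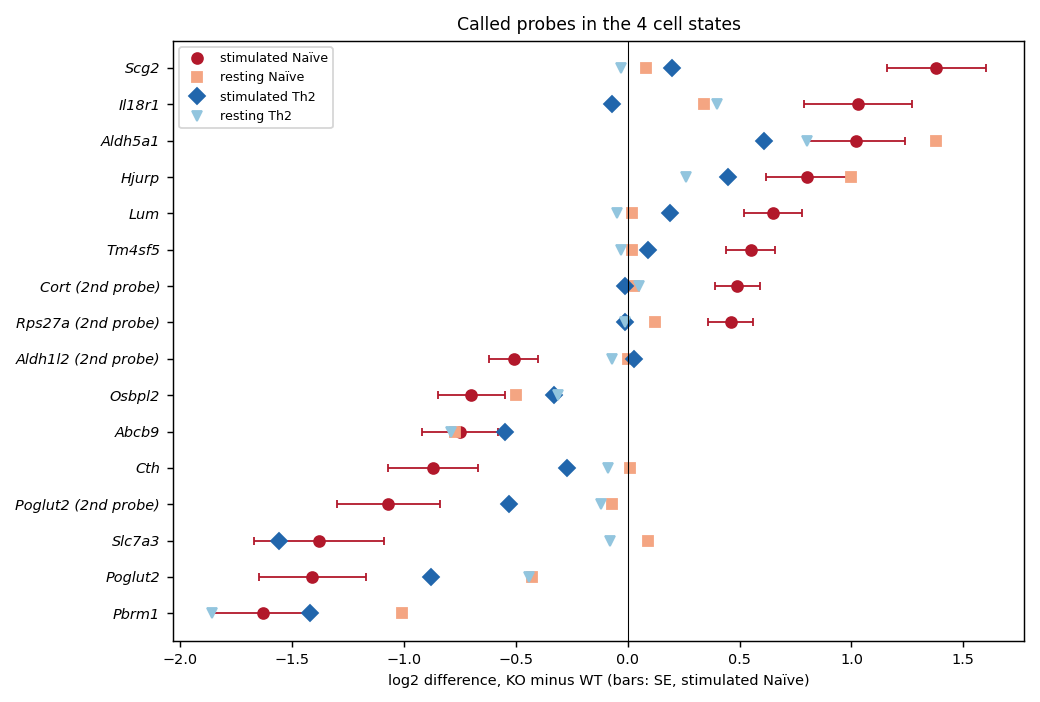
Log2 difference KO minus WT (x axis) of the 16 called probes in stimulated Naïve cells (circles, bars are the SE), resting Naïve (squares), stimulated Th2 (diamonds) and resting Th2 cells (triangles). Pbrm1, Poglut2, Abcb9, Osbpl2, Aldh5a1 and Hjurp lie on one side of 0 in all 4 states, and Slc7a3 lies below -1.3 only in the stimulated ones.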

How the data were processed

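RNA of 24 cultures was hybridized to Illumina mouse beadchips, and the deposited values were the intensity of each probe and its detection p-value, exported by the authors with GenomeStudio (1.6.0 in the submitters' processing notes, another version in the methods) without normalization or background subtraction. Background correction (from detection p-values, offset 16) and quantile normalization used neqc over the 24 arrays. Means of 8 groups were fitted with limma 3.58.1 in R 4.3.3, leaving 16 residual degrees of freedom. The brightest probe stood for a gene. Named genes were Pbrm1, all called genes, the 10 largest differences in each direction that were nominal, without overlap and detected, the 10 largest called with the block, list members with p below 0.05 and up to 4 others by size, and those the study's text names; Asns, Smarca4 and the marker genes were added after their values were seen. Probes were named through RefSeq tables by Entrez number (16938), accession (7420), synonym (552) or symbol (465), and 322 kept the array's symbol. Members and lists were chosen with earlier results of these data known. Same-letter KO and WT arrays deviated together (correlations of 0.65, 0.25 and 0.35 for A, B and C), so letters were read as pairs in these cells, although WT B correlated as well with KO C (0.27) and same-letter correlations fell to 0.05 for A in resting Th2 and -0.003 for B in resting Naïve cells; p-values otherwise measure the spread between these arrays. The array number, 3 per group, limits precision. Fits were tested on simulated data.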

Additional observations from a re-analysis of the deposited data

Results flagged for a closer look

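The genotype difference of 4930486L24Rik differed between the Naïve states by a test of the difference itself: stimulated minus resting was 1.41 on the log2 scale (limma adjusted p = 0.0433). The gene was not detected on any of the 6 stimulated arrays, where the difference was -0.00, and was -1.41 in resting Naïve cells. In the other settings run no probe passed this test.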

How the results depend on the processing

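The count of 15 called genes depended on the processing. It was 0 when only the 6 arrays were normalized (lowest adjusted p 0.988, 334 probes at p below 0.05) and 0 when only they were fitted, 5 with Z-score normalization, 1 with median centring, 5 without background correction, 9 without the detection filter, 5 with detection required on all 3 arrays of a genotype and 1 in a fit of the 12 Naïve arrays. Without the FDR criterion it was 280, and at an FDR below 0.05 alone 3. Leaving out 1 array at a time gave 3 to 15. Quantile normalization over the kept probes, chosen after seeing the data, gave 11, all among the 15. With the letter as a replicate block it was 22, with a block within each cell state 30 and with a block in the fit of the 6 arrays 0, where 805 probes had a p below 0.05. The Pbrm1 difference kept its sign everywhere but was not called at -1.68 (normalization over the 6 arrays), -1.54 (median centring) or -1.63 (fits of 6 and 12 arrays and the block in the 6 arrays), and stayed called at -1.86 to -1.34 without 1 array. The single probe that differed between stimulated and resting Naïve cells was lost, giving 0, in every other setting that could be fitted, leaving out 1 array (0 to 0) and the replicate blocks included. Against stimulated Th2 cells the count was 1 with Z-score normalization and 1 with an offset of 50, and 0 otherwise. These tests could not be fitted with the 6 arrays, nor the Th2 test with the 12 Naïve arrays. Of 1474 values of 74 named genes under the alternatives, 1283 kept sign and call, 143 lost the call, 21 gained one and 27 turned sign. Of 820 list medians 739 moved by less than the SD between letters. With median centring Arid2 was at 0.05, Cd44 at 0.03, the brightest Cort probe at 0.01, Dicer1 at 0.11, Gadd45a at 0.02 and Gata3 at 0.14. With Z-score normalization Dicer1 was at 0.03 and Gata3 at 0.01, and with the offset of 50 Dicer1 was at 0.00. Ranges without 1 array crossed 0 for Arid2 (-0.47 to 0.37), Asns (-0.41 to 0.02), Cd44 (-0.28 to 0.14), Cdkn2b (-0.06 to 0.10), Cort (-0.14 to 0.02), Dicer1 (-0.18 to 0.20), Gadd45a (-0.38 to 0.22), Gata3 (-0.11 to 0.11), Poglut1 (-0.03 to 0.25) and Rps27a (-0.10 to 0.25). The causes were not tested, and 3 arrays a group and signals near background limit all values.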
